A study of Mus musculus with 6 samples.

Results

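Toll-like and NOD receptors sense microbial molecules. Toll-like receptors (Tlr genes) sit in the cell surface or endosome membrane and signal mostly through the adaptor Myd88, while Nod1 and Nod2 are cytosolic sensors of peptidoglycan fragments that signal through the kinase Ripk2. Nlrp6 is a cytosolic receptor of the same NOD-like family, studied in the intestinal epithelium for its links to inflammasomes, mucus and the microbiota. In the gut these pathways feed NF-kB and the antimicrobial response, and the epithelium is in constant contact with their ligands. The set analysed here held 10 genes, Tlr1, Tlr2, Tlr3, Tlr4, Tlr5, Nod1, Nod2, Ripk2, Myd88 and Nlrp6. Its members were all consensus ATAC-seq peaks whose nearest transcription start site (TSS) belonged to 1 of these genes and lay within 50 kb. This gave 47 of the 156733 peaks, nearest to 9 of the 10 genes, and Tlr4 had none.

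ATAC-seq marks open chromatin by inserting sequencing adapters with the Tn5 transposase. It was applied to untreated small-intestinal organoids, which are cultures of epithelial stem cells and their progeny, from C57BL/6JRj mice aged 2 to 3 months (young, 3 libraries) or 20 to 22 months (aged, 3 libraries). Organoids had been kept for 3 to 5 weeks, and replicates 1, 2 and 3 of each age were taken at passage 4, 3 and 2. The question was how chromatin accessibility at these genes differed between the ages after culture outside the animal. Nothing in the labels ties the libraries of 1 age to different mice, so p-values measure the spread between these libraries, which may be technical.

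Libraries held 7278161 to 26093521 counts in peaks, and young replicate 1 was the shallowest. Promoter peaks were found for 11 of 14 epithelial marker genes, at a median of 38.1 CPM per kb (CPM are counts scaled to 1000000 per library, here per kb of peak). The epithelial markers Vil1, Krt19 and Elf3 had none, so lack of such a peak does not show that a cell type is absent. Of 13 immune cell markers, 4 had a promoter peak, and Ptprc, Itgam, Adgre1, Csf1r and Spi1 were among those without. The summed signal of those 4 was 11.1 to 13.5 CPM in young and 10.3 to 11.6 CPM in aged libraries. Promoter peaks were found for 4 of 9 stromal, 2 of 5 endothelial and 2 of 5 glial and neuronal markers. The endothelial pair summed to 2.80 to 4.05 CPM in young and 1.95 to 2.31 CPM in aged libraries. The exact permutation test gave p = 0.1, or 0.5 after adjustment over the marker lists. The part of this pair in the results below was not tested. Stromal markers summed to 19.1 to 24.3 CPM in young and 22.2 to 27.0 CPM in aged libraries. Glial and neuronal markers summed to 8.60 to 11.5 CPM in young and 11.0 to 11.9 CPM in aged libraries. In bulk libraries, fewer cells with an open site and less opening per cell cannot be told apart.

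The letters of 5 promoters are shown, because they span the range of openness described next: Nod2 was among the most open, Tlr1 was the least, and Tlr5, Tlr3 and Nod1 carried the summed differences between ages with the smallest p-values. Each is the 250 bases before the RefSeq TSS (GRCm38.p6), 5′ to 3′ on the gene's strand. Capitals mark matches, on either strand, to any of 10 motifs. The GC box is GGGCGG, the CCAAT box is CCAAT, the TATA box is TATAAA, the AP-1 site is TGANTCA and the ETS site is CCGGAA. The HNF4 site is CAAAGTCCA, the GATA site is AGATAA and the STAT site is TTCNNNGAA, and the NF-kB and ISRE motifs are given by name. Where RefSeq gives Nod1 or Tlr1 a second start, the window shown is the one under the promoter peak. The windows are Nod2 chr8:88647097-88647346 (+ strand), Nod1 chr6:54972613-54972862 (- strand), Tlr3 chr8:45410381-45410630 (- strand), Tlr5 chr1:182954538-182954787 (+ strand) and Tlr1 chr5:64933559-64933808 (- strand).
Nod2: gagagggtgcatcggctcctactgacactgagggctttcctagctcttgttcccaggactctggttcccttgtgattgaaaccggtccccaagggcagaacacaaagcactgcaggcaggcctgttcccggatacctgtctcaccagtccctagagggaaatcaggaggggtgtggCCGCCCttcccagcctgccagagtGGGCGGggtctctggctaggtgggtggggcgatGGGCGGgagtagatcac
Nod1: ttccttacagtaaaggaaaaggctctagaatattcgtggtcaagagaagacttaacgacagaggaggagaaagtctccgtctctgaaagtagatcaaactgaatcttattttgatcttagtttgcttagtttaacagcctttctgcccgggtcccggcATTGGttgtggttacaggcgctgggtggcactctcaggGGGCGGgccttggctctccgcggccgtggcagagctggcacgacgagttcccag
Tlr3: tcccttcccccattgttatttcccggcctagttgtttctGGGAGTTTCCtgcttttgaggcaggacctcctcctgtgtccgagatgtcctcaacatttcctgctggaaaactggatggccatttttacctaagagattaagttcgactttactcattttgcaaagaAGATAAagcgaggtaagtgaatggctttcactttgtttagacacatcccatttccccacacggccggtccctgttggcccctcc
Tlr5: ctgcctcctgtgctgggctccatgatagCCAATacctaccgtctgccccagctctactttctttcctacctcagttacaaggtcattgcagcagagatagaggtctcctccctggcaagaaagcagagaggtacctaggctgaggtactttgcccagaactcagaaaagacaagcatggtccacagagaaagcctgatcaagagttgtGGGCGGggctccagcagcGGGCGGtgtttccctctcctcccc
Tlr1: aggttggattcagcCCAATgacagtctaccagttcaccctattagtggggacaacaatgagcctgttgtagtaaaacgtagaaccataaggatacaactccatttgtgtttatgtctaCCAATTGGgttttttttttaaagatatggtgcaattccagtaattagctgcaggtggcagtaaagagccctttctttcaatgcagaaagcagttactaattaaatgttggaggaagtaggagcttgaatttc
The Nod2 window held 3 GC boxes and 61.2% G and C, and the Tlr1 window held none, 39.2% G and C and 1 CpG. GC boxes were in 32.7% of all 32851 promoter windows of this length. The Tlr5 window held 2 GC boxes and a CCAAT box, and that of Nod1 held 1 of each. Only 120 bases of the Tlr5 window lay in its promoter peak, and the CCAAT box lay outside it. Of the Tlr1 window, 175 bases lay in the peak. The 3 CCAAT matches of Tlr1 include 2 that overlap on opposite strands. Tlr3 had 1 NF-kB match and 1 GATA match, and the window of Tlr2 (not shown) had 2 overlapping NF-kB matches beside 2 GC boxes. At 62.8%, Tlr2 had the highest share of G and C of the member windows, though its promoter was less open than that of Nod2. NF-kB matches were in 7.25% and CCAAT boxes in 33.8% of all windows. Windows of 8 of the 10 genes were in the RefSeq table, all but Ripk2 and Tlr4. A match of letters shows neither binding nor a working site.

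Promoter openness differed widely between the genes. Means over the 6 libraries were 48.2 ± 5.46 CPM per kb at Ripk2 (SD, n = 6) and 41.1 ± 1.01 at Nod2, both above the median of coding promoters (82.0 and 76.6% of 11139 such peaks were lower). A middle group held Myd88 (20.4 ± 1.74 CPM per kb), Tlr3 (20.1 ± 1.01), Nlrp6 (17.8 ± 1.67) and Nod1 (17.4 ± 1.77). Tlr5 followed with 13.0 ± 1.55 CPM per kb and Tlr2 with 10.8 ± 0.961. Tlr1, which pairs with Tlr2 to bind triacylated lipoproteins, was lowest at 3.21 ± 1.01, and 9.58% of coding promoters were lower. The ranges over libraries did not overlap between Nod2 and Myd88, Nod1 and Tlr5, or Tlr2 and Tlr1. The ranges of all other neighbours in this order overlapped. Compared within libraries, Tlr3 was above Nlrp6 in 6 of 6, Ripk2 above Nod2 and Tlr5 above Tlr2 in 5 of 6, Myd88 above Tlr3 in 4 of 6 and Nlrp6 above Nod1 in 3 of 6. The Nod1 peak is classed as a promoter in the annotation, with its centre 1.03 kb from the TSS that the annotation uses. All 250 bases of the Nod1 window shown above, which precedes a RefSeq start, lie in this peak.

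**Figure D1:**
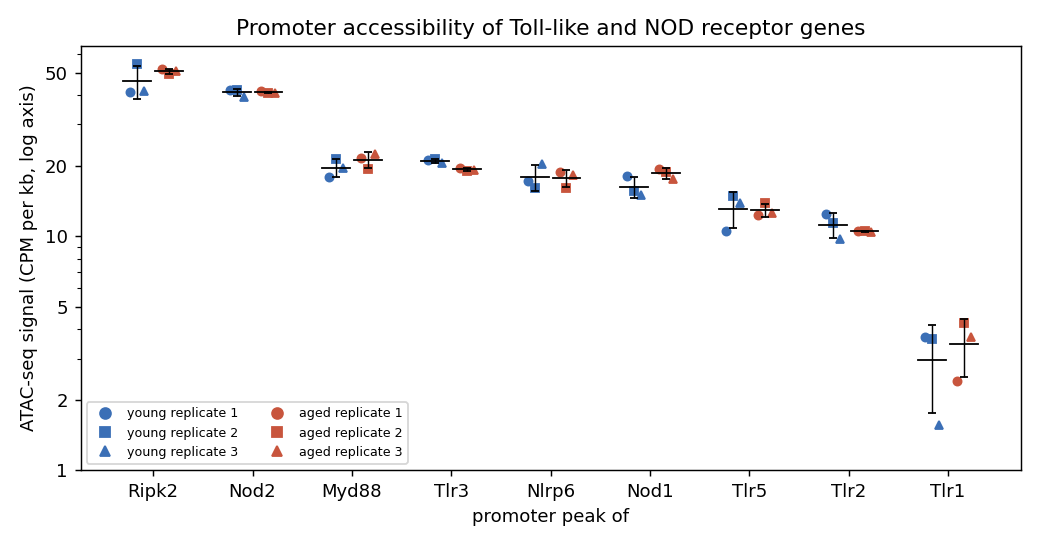
Promoter signal of 9 genes in each library, in CPM per kb of peak on a log axis, with black lines for the mean and bars for the SD of each age (n = 3). Genes are ordered by their mean over 6 libraries, from Ripk2 (48.2) to Tlr1 (3.21). The highest library is 1.07 to 1.42 times the lowest at all genes but Tlr1, where it is 2.73 times.

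Accessibility near these genes showed no called difference between the ages. Of the 42 peaks with enough counts to test, edgeR's quasi-likelihood test with Benjamini-Hochberg adjustment over all peaks called 0, against 1.13% of the 132055 tested peaks of the series. Unadjusted p-values under 0.05 were found for 4 of the 42 (9.52%), and for 9.71% of all tested peaks. DESeq2 also called 0, with 2 unadjusted p-values under 0.05 (0.682% of all peaks called, 5.33% under 0.05). With the replicate number as a block edgeR called 0 as well, with 7 under 0.05 (2.67% of all peaks called, 13.1% under 0.05; smallest adjusted p of a member 0.0911). The median log2 fold change of aged over young was -0.06 for members and -0.01 for all peaks. Values were positive for 15 members (35.7%) and negative for 27, and 48.0% of all tested peaks were positive. The aged libraries lay wholly above the young at 2 members (7.66% of all peaks) and wholly below at 6 (7.09% of all peaks).

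The precision differed by peak. For 20 of the 42 peaks the 95% interval of the fold change lay within 1.5-fold in either direction, and these had a median of 11.5 CPM. For the other 22, with a median of 1.41 CPM, a difference of 1.5-fold was not resolved at this depth. The 5 untested peaks were weak too, from 0.228 CPM (an intronic Nod1 peak) to 0.450 CPM (a Myd88 peak). A tested Nod1 peak 36.5 kb downstream of the TSS, at 0.331 CPM, lay within this range.

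**Figure D2:**
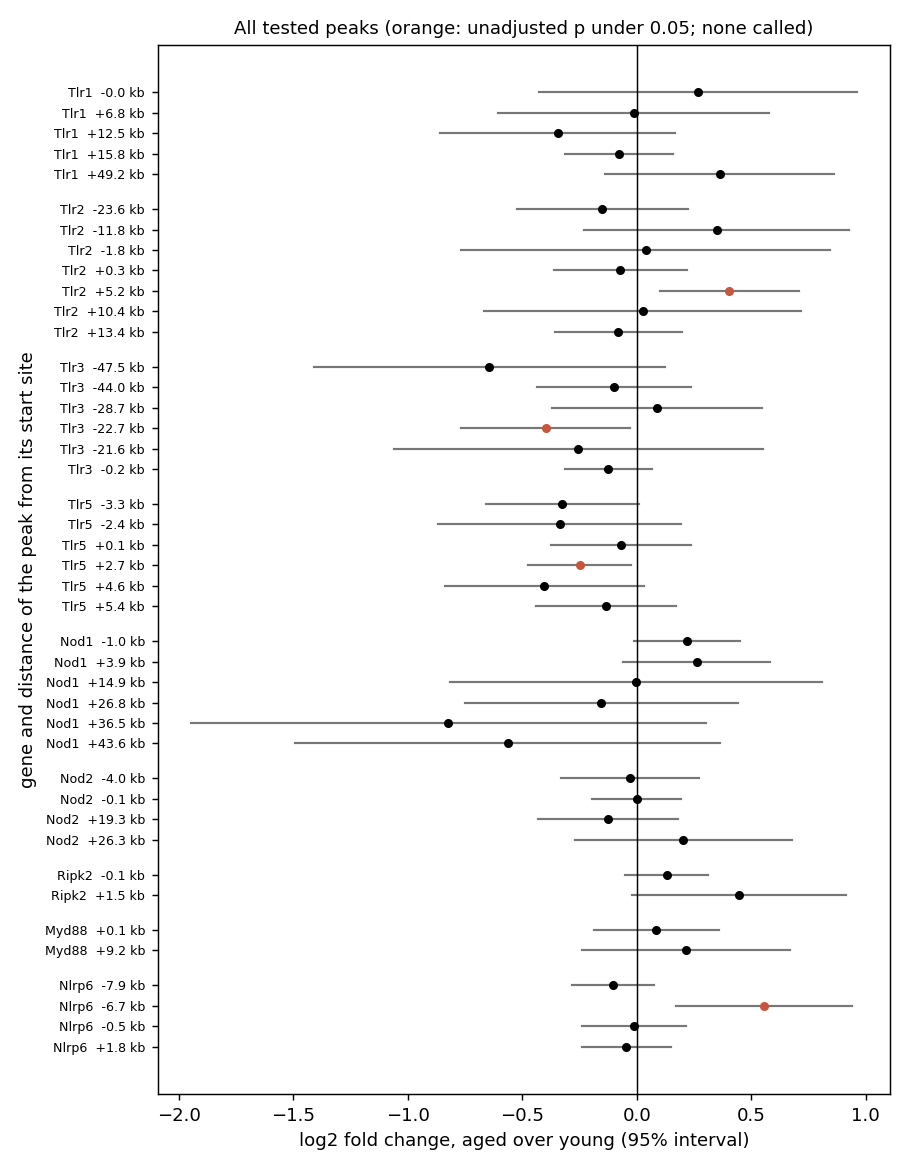
Log2 fold change of aged over young (x axis) with its 95% interval for each of the 42 tested peaks, grouped by gene and labelled by distance from the TSS. Orange points mark the 4 peaks with an unadjusted p under 0.05, none of which passed the adjustment, and the widest interval belongs to a Nod1 intron peak at -0.82.

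Among the membrane receptors, Tlr5, the receptor of bacterial flagellin, stood at lower mean values in aged organoids at each of its 6 peaks. It was singled out after its values were seen. Its strongest peak (chromosome 1, 182957173 to 182957796, intron 1, 2.66 kb downstream of the TSS) had 19.2, 19.4 and 22.9 CPM in young replicates 1 to 3 and 18.2, 18.5 and 15.5 CPM in aged replicates 1 to 3. The ages did not overlap, but the nearest libraries were close (log2 -0.25, SE 0.11; edgeR adjusted p = 0.437). The upstream peak 3.31 kb from the TSS (182951408 to 182951623) had 6.04, 5.64 and 5.80 CPM in young and 4.09, 5.22 and 4.54 CPM in aged libraries. Here too every aged library was lower (log2 -0.33; edgeR adjusted p = 0.536). The intron 2 peak 4.59 kb downstream had 3.23, 2.53 and 2.85 CPM against 2.27, 1.94 and 2.10 CPM, also without overlap (log2 -0.40; edgeR adjusted p = 0.566). The weak peak 2.41 kb upstream did not overlap either, with means of 1.59 and 1.28 CPM.

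The Tlr5 promoter peak (182954668 to 182955240) did not share this separation. It had 6.04, 8.55 and 7.96 CPM in young and 7.05, 7.95 and 7.22 CPM in aged libraries, so the ages overlapped (log2 -0.07; edgeR adjusted p = 0.937), and the value was 0.03 without young replicate 2. The peak 5.38 kb downstream overlapped as well (7.77 ± 0.685 and 7.2 ± 1.0 CPM, SD, n = 3). Summed over all 6 peaks, Tlr5 had 43.2, 46.3 and 48.7 CPM in young and 39.9, 43.4 and 36.7 CPM in aged libraries. Within each same-numbered pair the aged library was lower. The summed log2 fold change was -0.23 (SE 0.08, 95% interval -0.39 to -0.07; edgeR adjusted p = 0.204 over 29294 genes). The adjusted p was 0.0777 with the replicate block and up to 0.693 without aged replicate 3. Of 1724 genes with 6 tested peaks, 67 (3.89%) had negative values at all 6, and 46 had positive values at all 6. Tlr5, singled out after its values were seen, kept 6 negative values with RLE factors and with library totals. Without young replicate 2 its values were negative at 5 peaks and positive at 1. In thinned libraries 5 of its peaks were tested, all negative.

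**Figure D3:**
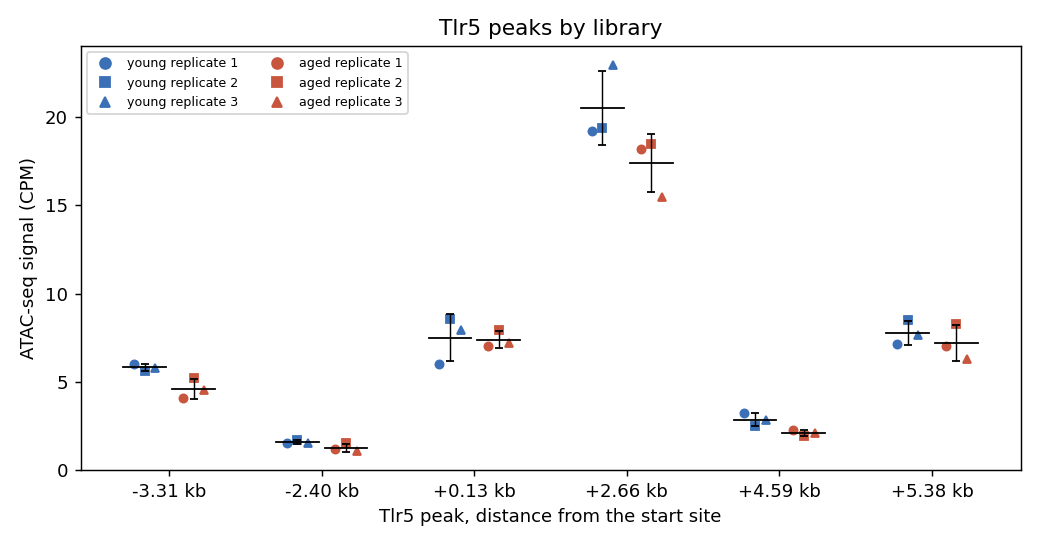
Signal of the 6 Tlr5 peaks in each library (CPM, linear axis from 0), ordered by distance from the TSS, with the mean and SD of each age (n = 3). Aged means are lower at every peak, and the ages overlap at the promoter (+0.13 kb) and at +5.38 kb.

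Tlr3, the endosomal receptor of double-stranded RNA, had its strongest peak at the promoter (chromosome 8, 45410178 to 45411446). This peak had 26.8, 27.1 and 26.1 CPM in young and 24.9, 24.1 and 24.4 CPM in aged libraries. All 3 aged values were lower, by a small margin (log2 -0.12, SE 0.09; edgeR adjusted p = 0.745). An intergenic peak 22.7 kb upstream (45432942 to 45433581) had 4.63, 4.12 and 5.49 CPM in young and 3.59, 3.19 and 3.96 CPM in aged libraries. The ages did not overlap there (log2 -0.40, SE 0.18; edgeR adjusted p = 0.458). The 4 other upstream peaks ranged from log2 -0.64 to 0.09 and overlapped between the ages. Their strongest, 44.0 kb upstream, had means of 5.26 and 4.90 CPM. The summed Tlr3 signal was 40.4 ± 1.19 CPM in young and 36.3 ± 0.664 CPM in aged libraries (SD, n = 3), without overlap (log2 -0.16, 95% interval -0.31 to -0.02; edgeR adjusted p = 0.383).

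Tlr2, which binds bacterial lipoproteins together with Tlr1 or Tlr6, had 7 peaks. Its smallest p belonged to a peak in its exon 3 (chromosome 3, 83836121 to 83837005, 5.20 kb downstream of the TSS). This peak had 7.02, 6.51 and 7.44 CPM in young and 10.5, 7.81 and 9.32 CPM in aged libraries. Every aged library was higher, aged replicate 2 only slightly (log2 0.40, SE 0.15; edgeR adjusted p = 0.283). The peak at the TSS (83841108 to 83841882), by contrast, had 9.68, 8.81 and 7.54 CPM against 8.14, 8.13 and 8.11 CPM, with the aged values inside the young range (log2 -0.07). The strongest Tlr2 peak, 13.4 kb downstream, had 13.5 ± 1.34 and 12.9 ± 2.83 CPM (SD, n = 3). The annotation places it in intron 4 of the noncoding gene Gm7115, though no RefSeq gene span overlaps it. The summed signal of Tlr2 was 36.1 ± 0.442 CPM in young and 37.1 ± 2.33 CPM in aged libraries (log2 0.03; edgeR adjusted p = 0.944).

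Tlr1 signal came mostly from outside the gene. Its promoter peak (chromosome 5, 64933432 to 64933733) had 1.12, 1.1 and 0.475 CPM in young and 0.727, 1.29 and 1.13 CPM in aged libraries, too few counts to resolve a moderate difference (log2 0.27, 95% interval -0.43 to 0.96; edgeR adjusted p = 0.876). An intergenic peak 15.8 kb downstream of the TSS (64917239 to 64918266) was the strongest, with 15.3 ± 0.198 CPM in young and 14.5 ± 1.2 CPM in aged libraries (SD, n = 3; log2 -0.08). The smallest p, for a peak 49.2 kb away with means of 1.53 and 2.15 CPM, gave an edgeR adjusted p of 0.701. The summed log2 fold change of Tlr1 was -0.05 and became 0.07 when only peaks within 10 kb were summed.

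Tlr4, the receptor of lipopolysaccharide, had no peak. No consensus peak of the table overlapped its RefSeq span (chromosome 4, 66827551 to 66846581, GRCm38.p6). The nearest lay 321 kb away on the side of higher coordinates and 1173 kb away on the other. The stretch without peaks was 1513 kb long, and 91 longer ones exist in the table, where neighbouring peaks are a median of 4.94 kb apart. Lack of a peak within 50 kb of the gene was shared by 2296 of 21887 coding genes (10.5%). Counts outside consensus peaks were not analysed here, so no level can be given for Tlr4.

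**Figure D4:**
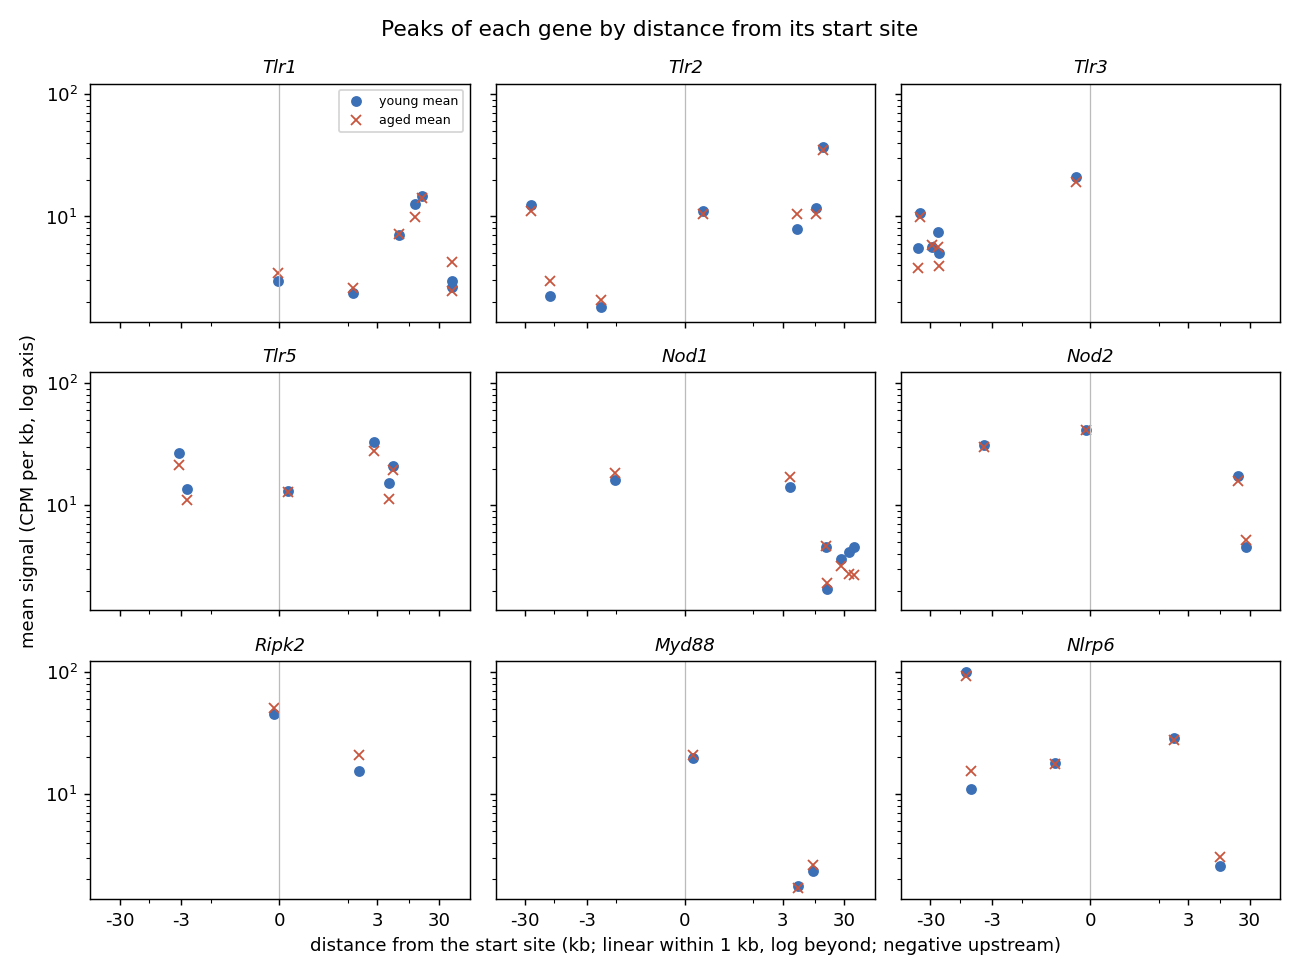
Mean signal of all 47 peaks (CPM per kb, log axis) against distance from the TSS of the 9 genes with peaks, with blue circles for young and orange crosses for aged libraries (n = 3 each). The strongest peaks of Tlr1, Tlr2, Tlr5 and Nlrp6 per kb lie away from the TSS, and that of Ripk2 and Nod2 lies at it.

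Among the cytosolic receptors, neither Nod1 nor Nod2 had a called peak, and they were not tested against each other. The Nod1 promoter peak (chromosome 6, 54972228 to 54973158) had 16.8, 14.5 and 13.9 CPM in young and 18.0, 17.5 and 16.3 CPM in aged libraries. Aged values were higher in each same-numbered pair, but the highest young library exceeded the lowest aged one (log2 0.22, SE 0.11; edgeR adjusted p = 0.552). The intron 1 peak 3.94 kb downstream had means of 6.08 and 7.35 CPM (log2 0.26). The weak peaks deeper in the gene had log2 values of 0.00 to -0.82 with wide intervals. The summed Nod1 signal was 26.0, 23.6 and 24.3 CPM in young and 28.4, 27.2 and 26.9 CPM in aged libraries. All aged sums were above all young sums (log2 0.16, SE 0.08, 95% interval -0.01 to 0.33; edgeR adjusted p = 0.513).

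Nod2, the sensor of muramyl dipeptide, had the promoter with the narrowest range over libraries in the set. The peak (chromosome 8, 88647026 to 88647636) had 25.7, 25.8 and 24.1 CPM in young and 25.4, 25.0 and 25.1 CPM in aged libraries. Its highest library was 1.07 times its lowest, against 1.13 to 2.73 times at the other 8 promoters. These ranges also depend on the counts in each peak and were not tested against counting noise. The log2 fold change was 0.00 with a 95% interval of -0.19 to 0.19. The upstream peak at 4.04 kb (7.65 and 7.38 CPM), the peak 19.3 kb downstream (7.24 and 6.65 CPM) and the intron 7 peak (2.28 and 2.58 CPM) overlapped between the ages. The summed signal of Nod2 was 42.4 ± 1.65 CPM in young and 41.8 ± 0.505 CPM in aged libraries (SD, n = 3; log2 -0.03; edgeR adjusted p = 0.941).

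Nlrp6 had the most signal of the set, and most of it was upstream of the gene. An intergenic peak 7.88 kb upstream (chromosome 7, 140912861 to 140913526) had 67.5, 57.6 and 74.8 CPM in young and 65.4, 56.9 and 63.4 CPM in aged libraries. Both ages were lowest in replicate 2 and the ranges overlapped (log2 -0.10, SE 0.09; edgeR adjusted p = 0.786). A smaller peak 6.71 kb upstream (140914214 to 140914501) had 3.93, 2.76 and 2.95 CPM in young and 4.77, 3.93 and 4.77 CPM in aged libraries. It had the smallest p of the set, with aged replicate 2 just under young replicate 1 (log2 0.56, SE 0.19; edgeR adjusted p = 0.216, and 0.0911 with the replicate block). The promoter peak (18.9 ± 2.34 and 18.8 ± 1.52 CPM) and the peak 1.76 kb downstream of the TSS (24.8 ± 1.15 and 23.9 ± 0.414 CPM) overlapped between the ages (SD, n = 3). The summed Nlrp6 signal was 113.8 ± 11.8 CPM in young and 109.4 ± 6.66 CPM in aged libraries.

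Of the signal carriers below the receptors, Ripk2 varied most among young libraries. Its promoter peak (chromosome 4, 16163071 to 16164375) had 53.8, 71.0 and 54.7 CPM in young and 67.9, 64.4 and 66.1 CPM in aged libraries. Young replicate 2 was the highest of all 6, and the other young libraries were the lowest (log2 0.13, SE 0.09; edgeR adjusted p = 0.70). Without young replicate 2 the promoter was called higher in aged organoids (log2 0.28; edgeR adjusted p = 0.0446, range over the alternatives 0.0446 to 1.0), when 0.783% of all peaks were called higher. A peak in intron 1, 1.5 kb downstream, had 1.82, 1.66 and 1.95 CPM in young and 2.59, 1.99 and 2.76 CPM in aged libraries, without overlap (log2 0.45, SE 0.23; edgeR adjusted p = 0.547). The promoter peak also overlaps the RefSeq span of the noncoding gene A530072M11Rik. Over both peaks, the Ripk2 log2 fold change was 0.12 with all libraries (edgeR adjusted p = 0.651) and 0.28 without young replicate 2 (edgeR adjusted p = 0.029, range 0.029 to 0.926), when 1.15% of all genes were called higher.

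Myd88, the adaptor of most Toll-like receptors and of the interleukin-1 receptor family, had its main peak over exon 1 (chromosome 9, 119339642 to 119340119). It had 8.56, 10.3 and 9.39 CPM in young and 10.3, 9.24 and 10.8 CPM in aged libraries, which overlapped (log2 0.09, SE 0.13; edgeR adjusted p = 0.906). The annotation places both other peaks of Myd88 in intron 1 of the neighbouring transporter gene Slc22a14, though no RefSeq gene span overlaps them. The stronger of them, 9.24 kb from the TSS, had means of 2.09 and 2.33 CPM (log2 0.22).

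Summed over all peaks of a gene, no member was called. Of 9 genes edgeR called 0, against 1.4% of the 29294 genes summed in the same way, and 2 had an unadjusted p under 0.05 (11.0% of all genes). DESeq2 called 0, with 1 unadjusted p under 0.05 (1.28% of all genes called, 7.61% under 0.05), and the replicate block called 0 (3.22% of all genes called). The ages did not overlap at Nod1, where aged sums were higher (8.79% of all genes), and at Tlr3, where they were lower (7.17% of all genes). For each of the 9 genes the 95% interval lay within 1.5-fold in either direction. Exact permutation tests of the summed CPM, two-sided, gave p = 0.1 to 0.9, where 3 libraries against 3 cannot go below 0.1, and adjusted values of 0.45 or more over the 9 genes. All member peaks together had 398.9 ± 6.42 CPM in young and 394.9 ± 6.87 CPM in aged libraries (SD, n = 3; log2 -0.01; exact permutation p = 0.6).

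**Figure D5:**
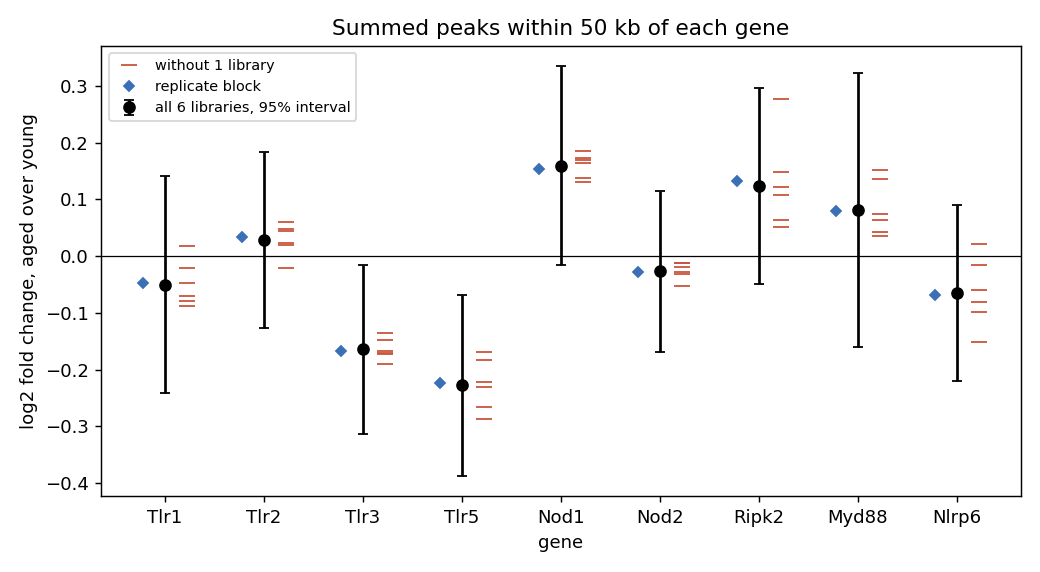
Log2 fold change of aged over young for the summed peaks of each gene, as black points with 95% intervals from all 6 libraries, blue diamonds with the replicate block and orange dashes with 1 library left out. Tlr5 (-0.23), Tlr3 (-0.16) and Nod2 (-0.03) lie below 0 in every such fit, and Nod1 (0.16), Ripk2 (0.12) and Myd88 (0.08) above. The signs of Tlr1, Tlr2 and Nlrp6 change when single libraries are left out. Ripk2 moves to 0.28 without young replicate 2.

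The wider pathway was described from a list of 72 further genes, of which 41 had a tested promoter peak. edgeR called 1 of them higher in aged organoids (0.489% of all 14323 tested promoter peaks) and 0 lower (0.998%), and 6 had an unadjusted p under 0.05 (10.7% of all promoters). Values were positive at 35 of the 41 promoters, and at 57.8% of all promoters. The counts were 33 with library totals (54.2% of all promoters), 36 with RLE factors (58.1%) and 28 of 39 in thinned libraries (59.8%). Without 1 library, 75.6 to 85.4% of the tested list promoters were positive, against 53.5 to 60.5% of all promoters. The medians were close, 0.07 for the list and 0.03 for all promoters. The called promoter was that of Tlr12, a mouse receptor of parasite profilin (chromosome 4, 128617932 to 128618582). It had 4.77, 4.2 and 3.11 CPM in young and 7.59, 7.85 and 7.96 CPM in aged libraries, well separated (log2 1.0, SE 0.17; edgeR adjusted p = 4.5e-04). The call held without any 1 library (adjusted p 6.2e-04 to 0.00599) but not after every library was reduced to the depth of young replicate 1 (log2 0.85, adjusted p 0.0618, from 4.4e-07 to 0.0618 over the alternatives).

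The next smallest p-values at promoters belonged to Slc15a1, a peptide transporter that also carries muramyl dipeptide (log2 0.41), the kinase Tbk1 (0.21) and Traf6, the ubiquitin ligase downstream of Myd88 (0.60). Their edgeR adjusted p-values were 0.237 to 0.448. Nlrc4, an inflammasome receptor, was at -0.28 and Tab2, a partner of the kinase Tak1, at 0.25. Tab2 was called without young replicate 2 (log2 0.45; edgeR adjusted p = 0.0298, range 0.0298 to 0.969). Nlrx1 (0.21), the ubiquitin-conjugating enzyme Ube2n (0.14), the inhibitory receptor Sigirr (0.15, in a peak that the annotation places in Ano9) and the deubiquitinase Otulin (0.16) completed the 10. Of all 289 tested peaks within 50 kb of list genes, promoters included, 3 were called higher, 1 of them the Tlr12 promoter, and 0 lower (0.619% and 0.51% of all peaks).

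The other 2 calls were distal. In intron 2 of Tbk1 (chromosome 10, 121580466 to 121580793) a peak rose from 0.842, 0.908 and 1.58 CPM in young to 2.18, 3.19 and 3.14 CPM in aged libraries (log2 1.31, SE 0.26; edgeR adjusted p = 0.00402). Its call was lost without young replicate 2 (log2 1.07, adjusted p 0.0609, range 1.2e-05 to 0.0609). An intergenic peak about 16 kb upstream of Ciita, the regulator of MHC class II genes, had 6.18, 7.15 and 8.65 CPM in young libraries and rose to 12.4, 11.4 and 10.9 CPM in aged ones (log2 0.63, SE 0.14; edgeR adjusted p = 0.0144). That call was lost without young replicate 1 (log2 0.56, adjusted p 0.0775), young replicate 2 (0.57, 0.0548) or aged replicate 1 (0.58, 0.0966), and in thinned libraries (0.53, 0.250, range 4.4e-04 to 0.250).

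Time in culture was examined with passage as a numeric term beside age. edgeR called 0 of the 42 members (0.00303% of all peaks), and 1 had an unadjusted p under 0.05 (5.27% of all peaks). Values were positive at 22 and negative at 20. The smallest p-values belonged to a peak in exon 4 of Nod1, 26.8 kb from the TSS (log2 -0.39 per passage; edgeR adjusted p = 0.935), a Tlr2 peak 10.4 kb downstream (0.37) and the intron 7 peak of Nod2 (0.22). Single libraries moved each of these slopes by over 1.5 times. The Nod1 slope was -0.12 without aged replicate 3. The Tlr2 slope was 0.77 without aged replicate 1 and 0.19 without young replicate 1, and the Nod2 slope was 0.44 without aged replicate 1 and 0.0761 without young replicate 3. With 1 library of each age at each passage, passage and replicate number cannot be told apart.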

How the data were processed

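ATAC-seq libraries of 3 young and 3 aged organoid cultures were analysed. The authors' tools included, per the submitters' processing notes, BWA 0.7.17-r1188, Picard 2.23.1, MACS2 2.2.7.1 and featureCounts 2.0.1 with GRCm38. The deposited values are raw counts per consensus peak, per the file headers. Tn5 shifting, duplicate treatment and whether reads or fragments were counted are not given in the sources used here. Counts carry no molecular identifiers. SEs, intervals and p-values from edgeR rest on the spread between libraries as well as on counting error. Start positions differ by 1 bp between the files, and those of the annotation are printed.

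Members and lists were chosen with earlier results of these data known. Named peaks follow a rule (promoter, strongest other peak and smallest p of each gene, the 10 smallest p among promoters of the pathway list, all calls, and the 3 smallest p of the passage trend), and further member peaks were chosen after their values were seen, to describe each locus. All peaks were fitted in edgeR 4.0.16 (R 4.3.3; TMM, filterByExpr with a minimum count of 10, robust quasi-likelihood F test, ~ age) with calls at 0.05 after Benjamini-Hochberg adjustment. Gene sums took all peaks within 50 kb. A promoter peak is the peak within 1 kb of the TSS with most counts. CPM used TMM-scaled library sizes. Summed CPM was compared by exact permutation, two-sided. Alternatives were RLE factors, library totals, no filter, DESeq2 1.42.0, the replicate block, thinned libraries, a 10 kb window and leaving out each library. Promoter letters came from RefSeq (GRCm38.p6), and 1 list gene was matched by an older symbol.

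The titles give young and aged libraries of 1 number the same code and passage. On that ground the replicate block was fitted as an alternative, while the main fits and the exact tests were not paired. The sample descriptions give the same passages but a single culture code for all 6 libraries, so whether the replicates are separate cultures is not settled by the labels. Across peaks, deviations from the age means had r of 0.0738, 0.126 and 0.144 between young and aged libraries of the same number. Between those of different numbers r was -0.125 to 0.00328. Because deviations were taken from the age means, both kinds of r depend on each other. Replicates of an age differed by more than counting noise (chi-square over its degrees of freedom 1.77 to 3.27). Counts were also simulated, with the same fixed dispersion for every peak or gene and no pairing. On these, the test per peak recovered 8 of 67 changes of 1.5-fold, 33 of 67 of 2-fold and 59 of 66 of 4-fold. The test per gene recovered 19 of 67, 63 of 67 and 65 of 66. False calls numbered 0 for peaks and 9 for genes. Such rates need not hold for the measured counts.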

Additional observations from a re-analysis of the deposited data

How the results depend on the processing

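The count of called member peaks was 0 under every alternative but 1, that without young replicate 2 (range without 1 library 0 to 1, the Ripk2 promoter). The same held for gene sums (0 to 1, Ripk2). With the replicate block the counts for member peaks and gene sums were 0 and 0, and no named peak or gene sum gained or lost a call under it. Called promoters of the pathway list numbered 1 with all libraries, 0 in thinned libraries and 1 to 2 without 1 library, where the added call was Tab2. The passage trend called 0 throughout, and the summed signal of all members stayed at log2 -0.03 to 0.00.

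Of 551 alternative values for 46 named peaks and gene sums, 519 kept their sign and side of the threshold, 6 lost a call and 3 gained one (all given above). Signs changed in 23, none called in either fit. The Nod2 promoter was at 5.4e-04 with RLE factors and 7.4e-04 in DESeq2. The Tlr1 sum was at 0.0065 in thinned libraries and 0.0746 for a 10 kb window, and the Tlr2 sum at -0.0077 in thinned libraries. Without 1 library, ranges that crossed 0 were -0.21 to 9.5e-04 (Nlrp6, 7.88 kb upstream), -0.11 to 0.11 (Nlrp6 promoter), -0.15 to 0.0212 (Nlrp6 sum), -0.11 to 0.0266 (Nod2, 4.04 kb upstream), -0.0339 to 0.0230 (Nod2 promoter), -0.0573 to 0.47 (Nod2 intron 7), -0.0698 to 0.64 (Tlr1 promoter), -0.26 to 0.0417 (Tlr2, 13.4 kb downstream), -0.21 to 0.0134 (Tlr3, 44.0 kb upstream), -0.16 to 0.0271 (Tlr5 promoter), -0.0879 to 0.0184 (Tlr1 sum) and -0.0216 to 0.0599 (Tlr2 sum). The cause was not tested.

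Thinning every library to the depth of young replicate 1, the shallowest, left 14 member peaks with positive and 17 with negative values to test.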

Other observations

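Beyond 50 kb, 4 more peaks had Nod1 or Tlr1 as their nearest start site. The strongest, an intergenic peak 65.4 kb downstream of the Nod1 TSS (chromosome 6, 54905515 to 54907020), had 14.5, 13.8 and 15.3 CPM in young and 14.5, 15.2 and 14.3 CPM in aged libraries. The ages overlapped (log2 0.01; edgeR adjusted p = 0.986). The Tlr1 peak 54.2 kb away had 1.59 ± 0.337 and 1.57 ± 0.498 CPM (SD, n = 3).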
